A study of Homo sapiens with 24 samples.

Results

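CASP2, CASP6, CASP8, CASP9, CASP10, APAF1, CYCS and DIABLO encode initiator and effector proteases of apoptosis, the scaffold on which CASP9 is activated and mitochondrial proteins. Of the latter, the product of CYCS sets the scaffold in motion and that of DIABLO binds inhibitor of apoptosis proteins. These 8 genes were taken by symbol from the 63299 genes of the count table, and all 8 were among the 20240 genes with enough reads to be tested. RNA was sequenced from A2780, a platinum-sensitive human ovarian cancer line, and from A2780cis, its isogenic platinum-resistant line, which was given 1 µM cisplatin for a passage every few passages. Both lines received 1 µM 5-FdU-ECyd, a duplex prodrug joining a fluorinated deoxyuridine to ethynylcytidine, an inhibitor of RNA synthesis, or standard medium alone, and were harvested 6 h or 12 h later. This gave 8 groups of 3 libraries: A2780 untreated and treated at 6 h and at 12 h, and A2780cis untreated and treated at the same times. More cells were seeded of A2780cis than of A2780, so that line, seeding and cisplatin history cannot be told apart. The study describes the libraries of a group as biological triplicates. The labels do not say whether they came from separate cultures, and p-values measure the spread between these samples.

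The libraries held 11077368 to 21901406 counts, and no pair of replicates was identical within sampling noise. Values below are CPM, each library's counts relative to its total after scaling by the trimmed mean of M-values. Adjusted p-values come from the quasi-likelihood F test of edgeR, corrected by Benjamini-Hochberg over all 20240 genes, and 0.05 was the threshold of a call. With scaling by library size alone, the median log2 change of all genes moved from 0.02 to 0.24 in A2780 at 12 h and by smaller amounts in the other treatment comparisons. The label of an ovarian epithelial cancer was checked against 9 epithelial and ovarian markers. None of them exceeded 1 CPM in every library, and PAX8, KRT7, MUC16, WT1 and CDH1 stayed at 3 counts or fewer throughout. The keratin genes KRT18 (0.696 to 29.2 CPM) and KRT8 (0.522 to 6.92 CPM) and the epithelial marker EPCAM (0.0691 to 2.2 CPM) were detected in every library, and KRT19 reached 6 counts. The mesenchymal marker VIM stood at 879 to 2560 CPM. Of the fibroblast markers, COL3A1 stood at 188 to 2160 CPM, COL1A1 at 0.0903 to 18.9 CPM and DCN at 0.414 to 11.9 CPM. The leukocyte markers PTPRC and CD3E and the endothelial marker PECAM1 reached 1 count at most and CDH5 had none, while CD68, also on the leukocyte list, stood at 2.16 to 8.14 CPM. In bulk RNA, fewer cells of a type and less RNA per cell cannot be told apart, and a CPM is a share of the sequenced RNA, not an amount per cell.

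Caspases are cysteine proteases made as inactive precursors. Initiators are activated by being brought together on a platform: CASP8 and CASP10 on death receptors through the adaptor FADD, CASP2 on the PIDD1 and CRADD complex, and CASP9 on the apoptosome, a wheel of APAF1 molecules that assembles when cytochrome c, the product of CYCS, leaves the mitochondria. DIABLO leaves with it and binds the inhibitor of apoptosis proteins that otherwise hold caspases in check, and CASP6 is an effector that cleaves nuclear lamins. Activation is by cleavage and assembly, and RNA levels give the supply of the precursors only.

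APAF1 lies at chr12:98645290-98735433 on the plus strand (GRCh38, GENCODE), and the gene IKBIP starts on the opposite strand 176 bp before it. This interval, which lies outside every annotated exon, is printed because both genes flank it and their RNA is compared below. CYCS lies at chr7:25118656-25125260 on the minus strand, and the 250 bases before its start are printed beside it because CYCS is the most abundant of the 8 and the treatment comparisons did not call it. Both sequences are from RefSeq windows of GRCh38.p14 and are written along the strand of APAF1 and of CYCS. Capitals mark GGGCGG (the GC box) and CCAAT (the CCAAT box) on either strand.
APAF1, chr12:98645114-98645289: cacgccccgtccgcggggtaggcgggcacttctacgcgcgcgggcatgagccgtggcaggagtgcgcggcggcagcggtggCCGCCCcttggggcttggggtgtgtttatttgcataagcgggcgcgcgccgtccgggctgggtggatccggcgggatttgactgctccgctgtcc
CYCS, chr7:25125261-25125510: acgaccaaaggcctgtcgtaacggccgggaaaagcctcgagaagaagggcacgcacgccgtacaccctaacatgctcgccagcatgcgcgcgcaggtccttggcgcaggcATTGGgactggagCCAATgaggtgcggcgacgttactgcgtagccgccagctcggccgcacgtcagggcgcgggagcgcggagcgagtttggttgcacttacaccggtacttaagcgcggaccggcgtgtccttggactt
The APAF1 interval was 72.2% G and C and held 1 GC box, and the CYCS stretch was 64.4% G and C and held 2 CCAAT boxes, the first on the opposite strand. Of 35116 RefSeq windows of 300 bases, 45% held a GC box and 34.6% a CCAAT box, so that these matches describe common letters. Windows were found for 7 of the 8 genes. The start window of CASP2 (chr7:143288101-143288400) held 3 matches to the NRF1 motif, which 5.78% of all windows hold. The E2F motif TTTNNCGC, the CRE motif TGACGTCA and the TATA box TATAAA did not occur in the printed stretches, and 6.89%, 1.85% and 11.5% of all windows hold them.

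In A2780, 5-FdU-ECyd changed 5 of the 8 genes at 6 h, against 29.4% of all genes tested (16% up and 13.4% down): APAF1, CASP10, CASP9 and CASP2 rose and CASP8 fell. At 12 h 4 of the 8 were called and all 4 rose (CASP10, APAF1, CASP6 and CASP2), against 54.8% of all genes called, 28.6% up and 26.1% down. In A2780cis, only CASP10 and CASP9 of the 8 were called at 6 h, 2 genes that both rose, against a background of 30.7% (14.4% up and 16.3% down). At 12 h 5 of the 8 were called in A2780cis, against a background of 59.9% (31% up and 28.9% down): CASP10, APAF1, CASP6 and CASP9 rose and CASP2 fell. CYCS and DIABLO were called in none of the 4 treatment comparisons. The treated and untreated libraries did not overlap for 5 of the 8 genes in A2780 at 6 h (41.6% of all genes), 5 at 12 h (64%), 3 in A2780cis at 6 h (43.2%) and 5 at 12 h (59.6%). At 12 h the shares of the 8 genes called in either direction were thus close to those of all genes.

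**Figure D1:**
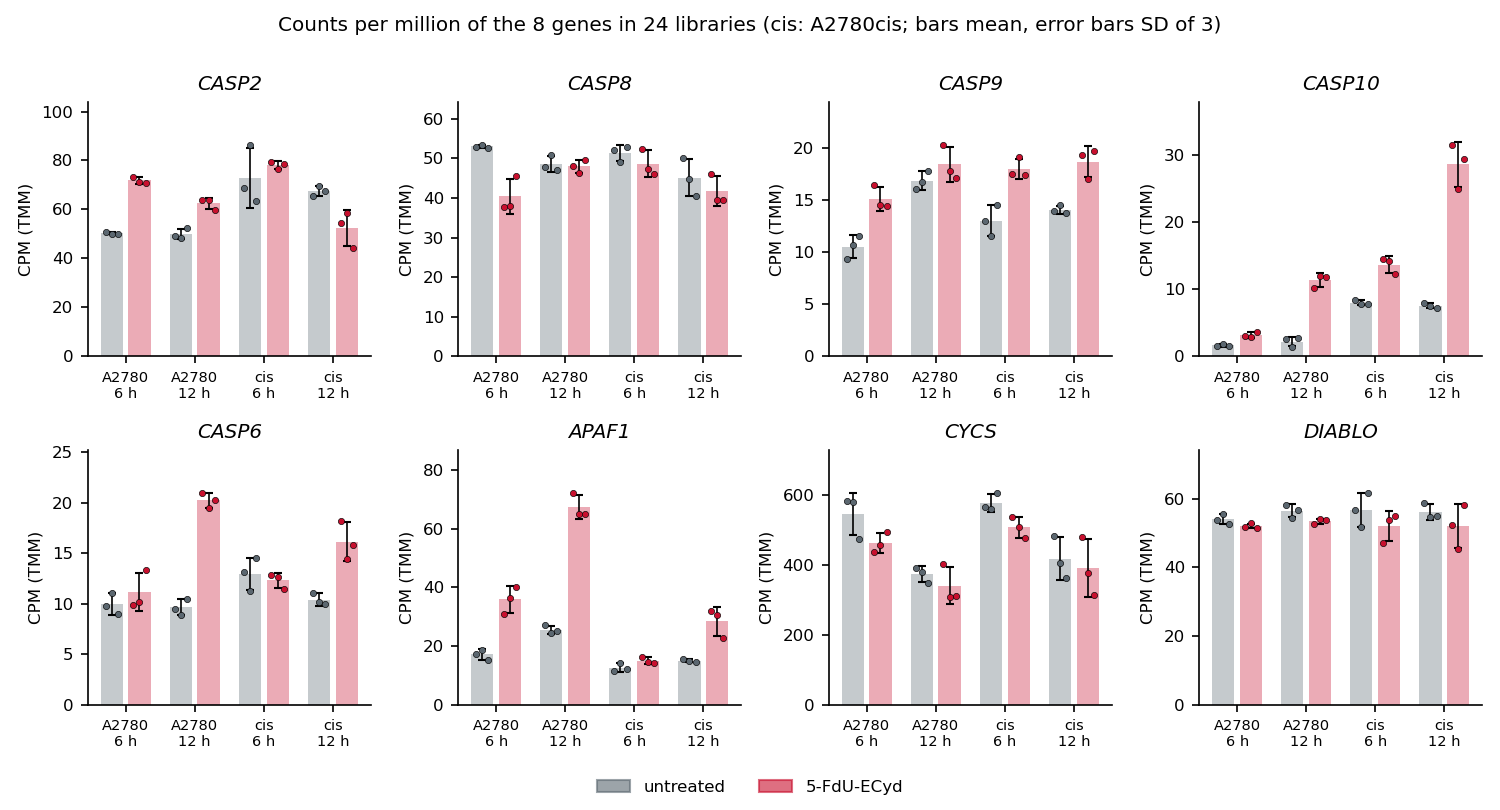
CPM of each gene by line and time, untreated in grey and 5-FdU-ECyd in red. Bars are means of 3 libraries, error bars the SD and points the libraries; CASP10 and APAF1 show the tallest treated bars at 12 h relative to their controls, while the treated and untreated bars of CYCS and DIABLO stand close in every pair.

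Of the initiators, CASP10 showed the largest change of the 8. CASP10 lies on chr2:201182872-201229428, plus strand. In A2780 at 6 h, its untreated libraries held 1.51, 1.89 and 1.55 CPM and the treated libraries 2.98, 2.87 and 3.7 CPM. At 12 h the untreated A2780 libraries held 2.57, 1.39 and 2.67 CPM and the treated ones 10.2, 12 and 11.9 CPM. Treated and untreated libraries did not overlap at either time. In A2780cis at 6 h, the untreated libraries held 8.41, 7.82 and 7.85 CPM and the treated ones 14.5, 14.3 and 12.3 CPM. At 12 h they held 7.99, 7.52 and 7.18 CPM untreated and 31.6, 24.9 and 29.4 CPM treated. Every treated library of A2780cis thus exceeded every A2780 library, treated or not, in CASP10.

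The log2 fold change of CASP10 in A2780 was 0.97 ± 0.22 (SE; adjusted p = 0.00202) at 6 h and 2.36 ± 0.17 (adjusted p = 1.07e-11) at 12 h, a 5.14-fold rise. In A2780cis it was 0.77 ± 0.15 (adjusted p = 0.000348) at 6 h and 1.92 ± 0.14 (adjusted p = 1.44e-11) at 12 h, a 3.78-fold rise. The effect grew between the times by 1.40 in A2780 (adjusted p = 0.00114) and by 1.15 in A2780cis (adjusted p = 0.000267). Of the 8 genes, 3 had a higher effect at 12 h than at 6 h in A2780 (CASP10, CASP6 and CASP8), against 23.7% of all genes called in this comparison, 10.7% up and 13% down. In A2780cis the effect was higher for 3 (CASP10, CASP6 and APAF1) and lower for CASP2, against 24% of all genes, 10.3% up and 13.6% down. The effects of both lines were not shown to differ at 12 h, where the difference, A2780cis minus A2780, was -0.44 with a 95% interval of -0.89 to 0.01 (adjusted p = 0.146). The counts behind the lowest values were few, 17 to 21 reads in untreated A2780 at 6 h.

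CASP10 was also the gene of the 8 that differed most between the untreated lines. It was 4.88-fold higher in A2780cis at 6 h (log2 2.29 ± 0.20, adjusted p = 2.69e-10) and 3.41-fold higher at 12 h (log2 1.77 ± 0.17, adjusted p = 1.58e-09). The untreated A2780cis level of 7.57 to 8.03 CPM on average lay below the 11.4 CPM that treated A2780 had at 12 h.

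CASP8, the other death receptor initiator, lies 4014 bp downstream of CASP10 on the same strand (chr2:201233443-201361836), and CFLAR, which encodes a catalytically inactive relative that regulates CASP8, lies 6184 bp upstream of CASP10. These neighbours moved unequally. CFLAR rose with CASP10 in all 4 treatment comparisons, by 1.25 ± 0.09 on the log2 scale in A2780 at 12 h (adjusted p = 9.63e-12) and by 0.99 ± 0.09 in A2780cis (adjusted p = 5.37e-10). CASP8 fell in A2780 at 6 h, from 53, 53.5 and 52.7 CPM to 37.8, 37.9 and 45.6 CPM, without overlap (log2 -0.39 ± 0.10, adjusted p = 0.00355). The difference between the lines at 6 h was 0.31 (adjusted p = 0.25). In the other 3 treatment comparisons its libraries overlapped and it was not called, with log2 values of -0.02 (95% interval -0.21 to 0.17) in A2780 at 12 h, -0.08 (-0.28 to 0.12) in A2780cis at 6 h and -0.12 (-0.31 to 0.08) in A2780cis at 12 h. Scaled by library size alone, the A2780 value at 12 h turned to 0.203 and passed the threshold (adjusted p = 0.0468). The effect in A2780 at 12 h exceeded that at 6 h by 0.37 (adjusted p = 0.0476), and that call was lost in 10 of the 12 fits that left out a library, with only those without treated A2780 replicate 3 at 6 h and treated A2780 replicate 2 at 12 h keeping it. CASP8 held 37.8 to 53.5 CPM over all 24 libraries, its 8 group means lay between 40.4 and 53 CPM, and neighbours in their order overlapped throughout.

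CASP2, at chr7:143288215-143307696 on the plus strand, moved in opposite directions in the 2 lines at 12 h. In A2780 it rose from 50.7, 50.1 and 49.9 CPM to 73.4, 71.3 and 71 CPM at 6 h. At 12 h it rose from 49.1, 48.4 and 52.5 CPM to 63.8, 63.8 and 59.8 CPM. In A2780cis at 6 h, the untreated libraries held 68.6, 86.5 and 63.5 CPM, replicate 2 standing above the others, and overlapped the treated ones at 79.5, 76.5 and 78.7 CPM. At 12 h the untreated A2780cis libraries held 65.4, 69.7 and 67.6 CPM, all above the treated ones at 54.4, 58.7 and 44.1 CPM.

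The CASP2 rise in A2780 was 0.52 ± 0.10 at 6 h (adjusted p = 0.000399) and 0.32 ± 0.10 at 12 h (adjusted p = 0.00803) on the log2 scale. In A2780cis it was 0.10 at 6 h (95% interval -0.10 to 0.31, adjusted p = 0.462), and at 12 h the gene fell by 0.37 ± 0.10 (adjusted p = 0.00243). Scaled by library size alone, that fall was smaller (log2 -0.255) and not called (adjusted p = 0.0538). The difference between the lines at 12 h was -0.69 (95% interval -0.98 to -0.40, adjusted p = 0.000993) and was called in all 20 alternative fits, while at 6 h it was -0.41 (adjusted p = 0.119) and passed only without untreated A2780cis replicate 3 (adjusted p = 0.0496). Within A2780cis the effect fell by 0.47 from 6 h to 12 h (adjusted p = 0.016), a call lost without untreated A2780cis replicate 3 at 6 h (adjusted p = 0.0581) and with the compared groups alone (adjusted p = 0.0591). Untreated A2780cis held more CASP2 than untreated A2780, by 0.53 at 6 h (adjusted p = 8.09e-05) and 0.43 at 12 h (adjusted p = 0.00059). In the order of group means, treated A2780cis at 12 h (52.4 CPM) overlapped untreated A2780 at 6 h (50.3 CPM) and at 12 h (50 CPM), the lowest groups.

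CASP9, the initiator of the apoptosome, lies on chr1:15490832-15526534, minus strand. At 6 h it went from 9.33, 10.7 and 11.5 CPM to 16.4, 14.5 and 14.4 CPM in A2780 and from 13, 11.5 and 14.5 CPM to 17.5, 19.1 and 17.4 CPM in A2780cis. Treated libraries lay above untreated ones in both lines. The log2 changes were 0.53 ± 0.12 (adjusted p = 0.00127) and 0.46 ± 0.11 (adjusted p = 0.00248). At 12 h CASP9 rose in A2780cis from 13.9, 14.5 and 13.7 CPM to 19.3, 17 and 19.7 CPM (log2 0.41 ± 0.11, adjusted p = 0.0016). In A2780 at 12 h the libraries overlapped, at 16, 16.7 and 17.8 CPM untreated and 20.3, 17.8 and 17.1 CPM treated (log2 0.13, 95% interval -0.09 to 0.34, adjusted p = 0.326), and with library size alone the value was 0.346 and called (adjusted p = 0.00501). Untreated A2780 itself had risen by then, by 0.68 ± 0.11 from 6 h to 12 h (adjusted p = 0.000472). The CASP9 effect in A2780 at 12 h minus that at 6 h was -0.40 (adjusted p = 0.0638), and it passed in 2 of the 12 fits that left out a library, those without untreated A2780 replicate 3 at 6 h (adjusted p = 0.0431) and without treated A2780 replicate 1 at 12 h (adjusted p = 0.0403). The difference of the CASP9 effects between the lines at 12 h was 0.29 with an interval of -0.02 to 0.59 (adjusted p = 0.171).

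CASP6, the effector, lies on chr4:109688622-109703583, minus strand, and responded at 12 h. At 6 h the groups overlapped in both lines, at 9 to 11.1 CPM untreated and 9.89 to 13.3 CPM treated in A2780, and at 11.3 to 14.5 CPM untreated and 11.5 to 12.8 CPM treated in A2780cis. The log2 changes at 6 h were 0.17 (95% interval -0.11 to 0.44) and -0.09 (-0.35 to 0.18). At 12 h CASP6 rose in A2780 from 9.5, 8.92 and 10.5 CPM to 21, 19.5 and 20.3 CPM. In A2780cis it rose from 11.1, 10.2 and 9.93 CPM to 18.2, 14.4 and 15.8 CPM. Neither pair of groups overlapped. The log2 changes at 12 h were 1.07 ± 0.12 (adjusted p = 5.47e-08) and 0.63 ± 0.12 (adjusted p = 8.54e-05). The effect exceeded that at 6 h by 0.90 in A2780 (adjusted p = 0.000874) and by 0.72 in A2780cis (adjusted p = 0.00467). The difference between the lines at 12 h, -0.44, missed the threshold (95% interval -0.80 to -0.08, adjusted p = 0.0666), and it passed with library size alone (adjusted p = 0.0106) and without treated A2780cis replicate 1 (adjusted p = 0.029). Treated A2780 at 12 h stood above all other groups in CASP6, and treated A2780cis at 12 h overlapped the next, untreated A2780cis at 6 h (13 CPM).

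**Figure D2:**
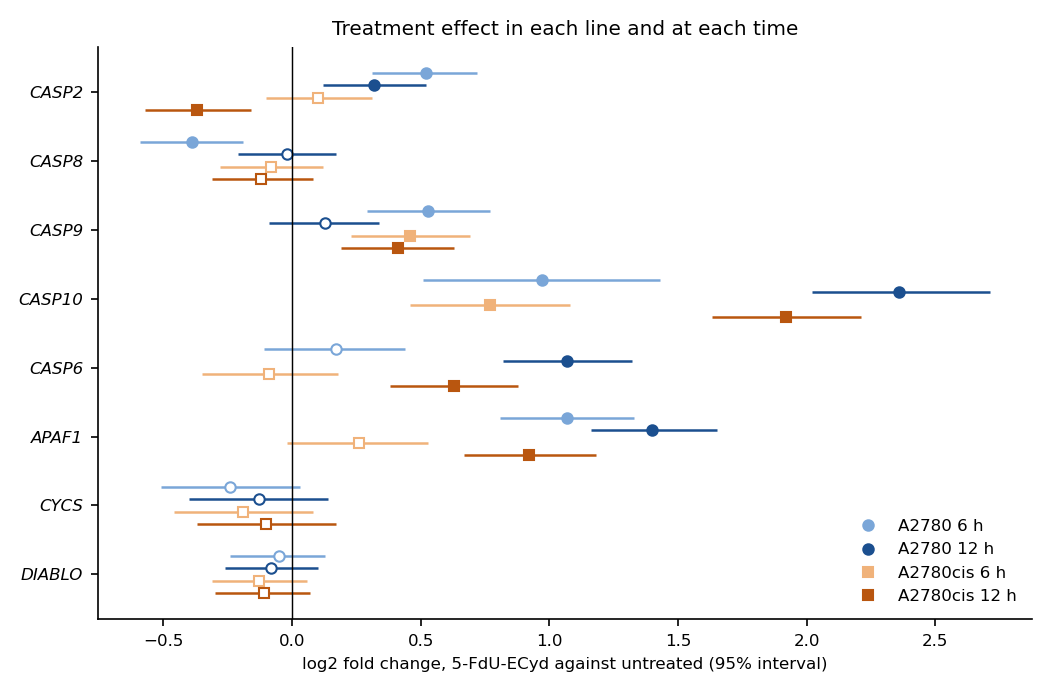
Log2 fold change of 5-FdU-ECyd against untreated on the horizontal axis with its 95% interval, by gene, line (circles A2780, squares A2780cis) and time (pale 6 h, dark 12 h). Filled symbols passed an adjusted p of 0.05; CASP10 reached 2.36 and 1.92 at 12 h, CASP2 at 12 h lay above 0 in A2780 and below 0 in A2780cis, and all intervals of CYCS and DIABLO held 0.

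APAF1 rose by more in A2780 than in A2780cis, a difference that was firmer at 6 h than at 12 h. In A2780 at 6 h, the libraries went from 17.2, 18.8 and 15.3 CPM to 31.1, 36.5 and 40.3 CPM. At 12 h they went from 27.1, 24.4 and 25.1 CPM to 72.4, 65.2 and 65 CPM. Each treated library was above each untreated one. In A2780cis at 6 h, the libraries held 11.4, 14.3 and 12 CPM untreated and 16.3, 14.6 and 14.2 CPM treated, and they overlapped. At 12 h the untreated A2780cis libraries held 15.5, 14.9 and 14.5 CPM and the treated ones 31.8, 30.6 and 22.8 CPM, replicate 3 being the lowest. The treated A2780cis mean at 12 h, 28.4 CPM, overlapped untreated A2780 at 12 h, 25.5 CPM.

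The log2 fold change of APAF1 was 1.07 ± 0.13 (adjusted p = 5.58e-07) at 6 h and 1.40 ± 0.12 (adjusted p = 3.26e-10) at 12 h in A2780, and 0.26 ± 0.13 (95% interval -0.02 to 0.53, adjusted p = 0.154) and 0.92 ± 0.12 (adjusted p = 4.87e-07) in A2780cis. With library size alone the A2780cis value at 6 h passed (log2 0.353, adjusted p = 0.0437). Of the 8 genes APAF1 alone was called as different between the lines at 6 h, by -0.82 (95% interval -1.20 to -0.44, adjusted p = 0.0114), where 3.07% of all genes were called, 0.692% up and 2.38% down. The call was lost without untreated A2780cis replicate 2 (adjusted p = 0.0513). At 12 h APAF1 and CASP2 were called, 2 of the 8 and both lower, against 23.7% of all genes, 9.7% up and 14% down. The APAF1 difference at 12 h was -0.48 (95% interval -0.83 to -0.13, adjusted p = 0.0428), and this call was lost in 9 of the 12 fits that left out a library. It held without untreated A2780 replicate 1 and without treated A2780cis replicates 1 and 2. In A2780cis the effect at 12 h exceeded that at 6 h by 0.67 (adjusted p = 0.00924), and in A2780 the same difference was 0.33 (95% interval -0.03 to 0.68, adjusted p = 0.178). Untreated A2780cis held less APAF1 than untreated A2780, by 0.44 at 6 h (log2 -0.44, adjusted p = 0.00797) and 0.77 at 12 h (log2 -0.77, adjusted p = 7.57e-06).

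IKBIP, on the other side of the printed 176 bp, had log2 changes of 0.94 (adjusted p = 1.44e-06) and 1.63 (adjusted p = 1.19e-11) in A2780 at 6 h and 12 h, and 0.29 (adjusted p = 0.0564) and 0.98 (adjusted p = 4.92e-08) in A2780cis. Its exons do not overlap those of APAF1. ANKS1B, on the strand opposite to APAF1, shares 750 bp or 9.7% of the APAF1 exon length, reached at most 18.7% of the APAF1 counts and changed by 0.81, 1.71, 0.27 and 1.04 in the same order. The library kit was stranded, but the strand setting of the counting is not stated, so reads of both genes in the shared bases cannot be told apart.

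CYCS, the gene of cytochrome c, was not called in any treatment comparison. Its levels ran from 310 to 608 CPM over the 24 libraries. In A2780cis at 6 h the treated libraries (477 to 538 CPM) all lay below the untreated ones (561 to 608 CPM), and elsewhere treated and untreated libraries overlapped. The log2 changes were -0.24 (95% interval -0.51 to 0.03) and -0.13 (-0.40 to 0.14) in A2780 and -0.19 (-0.46 to 0.08) and -0.10 (-0.37 to 0.17) in A2780cis, at 6 h and 12 h. All 4 had the same sign, but with library size alone both values at 12 h turned, to 0.088 and 0.011. The last of these values also rested on single libraries: treated A2780cis at 12 h held 482, 378 and 315 CPM, and without the first of these libraries the change was -0.302 (adjusted p = 0.0493). CYCS changed between the times instead. In untreated A2780 it fell from 583, 582 and 476 CPM at 6 h to 393, 379 and 348 CPM at 12 h (log2 -0.55 ± 0.13, adjusted p = 0.00439). In untreated A2780cis it fell from 566, 561 and 608 CPM to 485, 407 and 364 CPM (log2 -0.47 ± 0.13, adjusted p = 0.0068), a call lost without untreated A2780cis replicate 3 at 12 h (adjusted p = 0.0609) and with library size alone (adjusted p = 0.0552). The table also holds 42 cytochrome c pseudogenes, 28 of them with a count, whose sum was 1.96% to 2.86% of the CYCS counts. Adding them to CYCS changed none of its 8 calls in the treatment, line and time comparisons.

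DIABLO, at chr12:122207663-122227456 on the minus strand, was the steadiest of the 8. Its group means lay between 52 and 56.8 CPM, its libraries between 45.4 and 61.8 CPM, and neighbours in the order of groups overlapped throughout. In A2780 at 12 h, though, the treated libraries (52.6 to 54 CPM) all lay below the untreated ones (54.5 to 58.3 CPM). The log2 changes were -0.05 (95% interval -0.24 to 0.13) and -0.08 (-0.26 to 0.10) in A2780 and -0.13 (-0.31 to 0.06) and -0.11 (-0.30 to 0.07) in A2780cis, at 6 h and 12 h. These intervals leave room for a fall of at most 0.31 on the log2 scale (lowest bound -0.31). Without treated A2780cis replicate 3 the last value was -0.228 and called (adjusted p = 0.0416). DIABLO shares 18.8% of its exon length with B3GNT4, on the opposite strand, and ENSG00000256861, on the same strand, which reached 60.3% and 171% of its counts, so that its level includes reads that cannot be assigned to it alone.

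**Figure D3:**
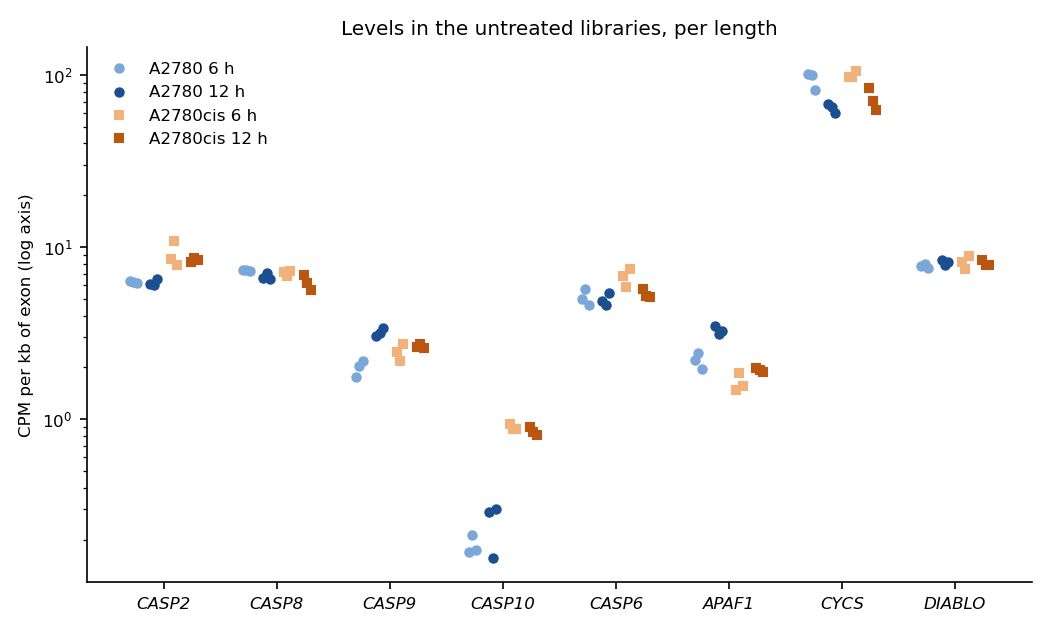
CPM per kb of exon (vertical log axis) of each gene in the 12 untreated libraries, circles A2780 and squares A2780cis, pale 6 h and dark 12 h. CYCS lies far above the others and CASP10 below them, with 0.185 CPM per kb in A2780 and 0.9 in A2780cis on average at 6 h.

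Per kb of exon, the untreated levels at 6 h were ordered the same at their ends in both lines. The length used is that of all annotated exons of a gene joined, not of the transcripts expressed. The order between genes of near levels therefore depends on the annotation. In A2780 the mean was 94.5 ± 10.6 CPM per kb (SD, n = 3) for CYCS, 7.78 ± 0.21 for DIABLO, 7.33 ± 0.0562 for CASP8, 6.27 ± 0.0486 for CASP2, 5.12 ± 0.538 for CASP6, 2.2 ± 0.229 for APAF1, 2 ± 0.212 for CASP9 and 0.185 ± 0.0238 for CASP10. In that order APAF1 and CASP9 overlapped. In A2780cis CYCS stood at 99.9 ± 4.48 and CASP10, still the lowest, at 0.9 ± 0.0373 CPM per kb. CASP2 (9.09 ± 1.51) had the next highest mean after CYCS there, and its libraries overlapped those of DIABLO (8.16 ± 0.718). After 12 h of treatment, APAF1 stood at 8.71 ± 0.547 CPM per kb in A2780 and 3.66 ± 0.627 in A2780cis, and CASP10 at 1.28 ± 0.112 and 3.21 ± 0.383.

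The untreated lines differed in 5 of the 8 genes at 6 h (4 higher and 1 lower in A2780cis), against 47.9% of all genes, 25% up and 22.9% down. At 12 h they differed in 4 (2 higher and 2 lower), against 52.9%, 25.4% up and 27.5% down. Besides CASP10, CASP2 and APAF1, CASP9 was higher in A2780cis at 6 h (log2 0.31 ± 0.12, adjusted p = 0.0296) and lower at 12 h (log2 -0.27 ± 0.11, adjusted p = 0.0383), and CASP6 was higher at 6 h (log2 0.39 ± 0.13, adjusted p = 0.0174). The CASP9 and CASP6 calls were the weakest of these: CASP9 at 12 h was lost whichever of the 6 compared libraries was left out, CASP9 at 6 h in 4 of 6 such fits (without untreated A2780 replicates 1 and 2 and A2780cis replicates 1 and 3) and CASP6 in 3 of 6 (without untreated A2780 replicates 1 and 3 and A2780cis replicate 3). CASP8, CYCS and DIABLO were called at neither time, with log2 values from -0.11 to 0.17; those of CYCS and DIABLO at 6 h turned sign with library size alone. Between 6 h and 12 h without treatment, 3 of the 8 changed in A2780 (CASP9 and APAF1 up, by 0.68 and 0.58, and CYCS down), against 26.9% of all genes, 16.6% up and 10.3% down. In A2780cis, 2 of the 8 fell (CYCS and CASP6, the latter by 0.32, adjusted p = 0.0472), against 39.9% of all genes, 18% up and 21.9% down. The CASP6 call was lost in 4 of the 6 fits that left out a library, those without untreated A2780cis replicates 1 and 3 at 6 h and replicates 2 and 3 at 12 h. Libraries did not overlap between the untreated lines for 4 of the 8 genes at 6 h (52% of all genes) and 4 at 12 h (62.3%), and between the times for 4 in A2780 (46.1%) and 3 in A2780cis (48.9%). Comparisons within a line share their untreated libraries with the treatment comparisons.

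The genes around the caspases gave the following counts. At 12 h the shares of all genes called were 28.6% up and 26.1% down in A2780 and 31% up and 28.9% down in A2780cis, against which each list's counts at 12 h are to be read. Of 11 adaptors and regulators of the initiators, 6 rose and 1 fell in A2780, and 5 rose and 1 fell in A2780cis at 12 h. The list's median log2 change was 0.54 and 0.28 in the 2 lines, where the medians over all genes were 0.02 and 0.04. PIDD1, the core of the CASP2 platform, rose by 2.02 ± 0.28 (adjusted p = 1.22e-06) in A2780, from 16.2 ± 1.57 to 65.3 ± 19.6 CPM (SD, n = 3). In A2780cis it rose by 2.30 ± 0.28 (adjusted p = 9.59e-08), from 24.3 ± 6.66 to 120 ± 49.2 CPM, with a wide spread between the treated libraries. Without treatment PIDD1 also rose from 6 h to 12 h, by 1.02 in A2780 (adjusted p = 0.0208). In untreated A2780cis that rise of PIDD1 was 2.2, from 5.22 to 24.3 CPM (adjusted p = 4.88e-05). CRADD, its adaptor, fell by 0.58 ± 0.17 (log2 -0.58, adjusted p = 0.006) and 0.48 ± 0.19 (log2 -0.48, adjusted p = 0.0291). CFLAR was the other gene named here, with the values given beside CASP10. At 6 h, 7 of the 11 had risen in A2780, against 16% of all genes, and in A2780cis 3 rose and 1 fell, against 14.4% and 16.3%.

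A list of 8 genes held inhibitors of apoptosis proteins, among them the partners of DIABLO, and XAF1, which antagonizes XIAP. Of these, 7 were tested, and at 12 h 3 rose and 2 fell in A2780 and 2 rose and 3 fell in A2780cis, with medians of 0.01 and -0.04. BIRC3, a ubiquitin ligase that acts at death receptor complexes, rose by 3.06 ± 0.17 (adjusted p = 9.28e-14) in A2780, from 2.55 ± 0.492 to 21.3 ± 2.3 CPM. Its rise in A2780cis was 0.96 ± 0.15 (adjusted p = 4.62e-06), from 7.38 ± 1.16 to 14.4 ± 1.91 CPM. NAIP, which also acts in an inflammasome, rose by 0.73 and 0.39. BIRC6 fell in A2780 (log2 -1.82 ± 0.15, adjusted p = 2.69e-10), with 222 ± 10.7 CPM untreated and 62.8 ± 4.76 CPM treated. The A2780cis libraries held 114 ± 3.21 CPM of BIRC6 untreated and 41.4 ± 10.5 CPM treated (log2 -1.46 ± 0.16, adjusted p = 1.1e-08). BIRC5, a mitotic gene, fell in both lines (log2 -0.35 and -0.92). At 6 h 3 of the 7 fell in each line, against 13.4% of all genes in A2780 and 16.3% in A2780cis. They were XIAP, BIRC6 and XAF1 in A2780 and XIAP, BIRC6 and BIRC5 in A2780cis.

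A list of 6 further genes held mitochondrial release factors and the AIFM1 relatives AIFM2 and AIFM3. Of these 6, 2 rose and 2 fell in each line at 12 h, near the shares of all genes. SEPTIN4 and AIFM3, named after their values were seen because their low average level kept them outside the naming rule, rose in both lines (SEPTIN4 by 4.44 and 1.34, AIFM3 by 1.37 and 1.55), and AIFM2, likewise low, fell in A2780cis (log2 -1.12). ENDOG, a mitochondrial nuclease, fell in both (log2 -0.82 and -0.40), and AIFM1 fell in A2780 (log2 -0.26, adjusted p = 0.0168). Between the untreated lines 4 of the 6 were higher in A2780cis at 6 h, against 25% of all genes, and 5 at 12 h, against 25.4%. Of 8 regulators of the apoptosome and cytochrome c, 1 rose and 4 fell in A2780 and 1 rose and 5 fell in A2780cis at 12 h, with medians of -0.29 and -0.38. CARD8 rose by 0.56 ± 0.11 (adjusted p = 6.4e-05) and 0.57 ± 0.10 (adjusted p = 4.33e-05), while the chaperone gene HSPA4 fell in A2780 (log2 -1.15 ± 0.10, adjusted p = 4.79e-10; 640 ± 32.8 CPM untreated, 288 ± 32.5 CPM treated). The A2780cis libraries held 570 ± 37.5 CPM of HSPA4 untreated and 247 ± 32 CPM treated (log2 -1.21 ± 0.10, adjusted p = 1.49e-10). ANP32A, which promotes apoptosome assembly, fell in A2780 (log2 -0.70, adjusted p = 1.36e-06) and in A2780cis (log2 -0.50, adjusted p = 0.000105). PTMA, which holds assembly back, also fell in both (log2 -0.32, adjusted p = 0.00348, and log2 -0.60, adjusted p = 2.38e-06).

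A list of 10 genes held those for proteins that caspases cleave, or set free by cleavage, as cells are dismantled. At 12 h, 7 fell and 2 rose in A2780 and 8 fell and 2 rose in A2780cis, with medians of -0.36 and -0.75. The lamin genes, whose proteins CASP6 cleaves, moved apart: LMNA rose by 0.98 ± 0.17 (adjusted p = 2.23e-05) in A2780 and 0.51 ± 0.16 (adjusted p = 0.00834) in A2780cis, and LMNB1 fell in A2780 from 367 ± 4.33 to 139 ± 16.9 CPM (log2 -1.40 ± 0.10, adjusted p = 1.4e-11). GSN, an actin-severing protein gene, rose by 0.39 in each line. DFFB, the nuclease that cuts DNA between nucleosomes, fell (log2 -1.01 and -1.56), and ROCK1, a kinase of membrane blebbing, went from 428 ± 28.5 to 116 ± 18.5 CPM in A2780cis (log2 -1.89 ± 0.13, adjusted p = 3.09e-12).

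Among other caspases and genes with a CARD domain alone, 7 of 8 listed genes were in the table and 3 had enough reads. CASP4, which senses bacterial lipopolysaccharide, rose in A2780 at 12 h from 11.6 ± 1.31 to 17.1 ± 2.43 CPM (log2 0.57, adjusted p = 0.00788). All 3 were lower in untreated A2780cis than in untreated A2780 at 6 h and 12 h, against 22.9% and 27.5% of all genes. They passed the filter on low counts through A2780, where they were high. This count was therefore set by the filter and says nothing about the list. CASP4 stood at 15 ± 1.96 CPM in untreated A2780 and 0.131 ± 0.154 CPM in untreated A2780cis at 6 h. CASP1 and CARD16, named after their values were seen, stood at 40 ± 3.02 and 125 ± 9.8 CPM in A2780 and at 0.0941 ± 0.101 and 0.246 ± 0.154 CPM in A2780cis.

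**Figure D4:**
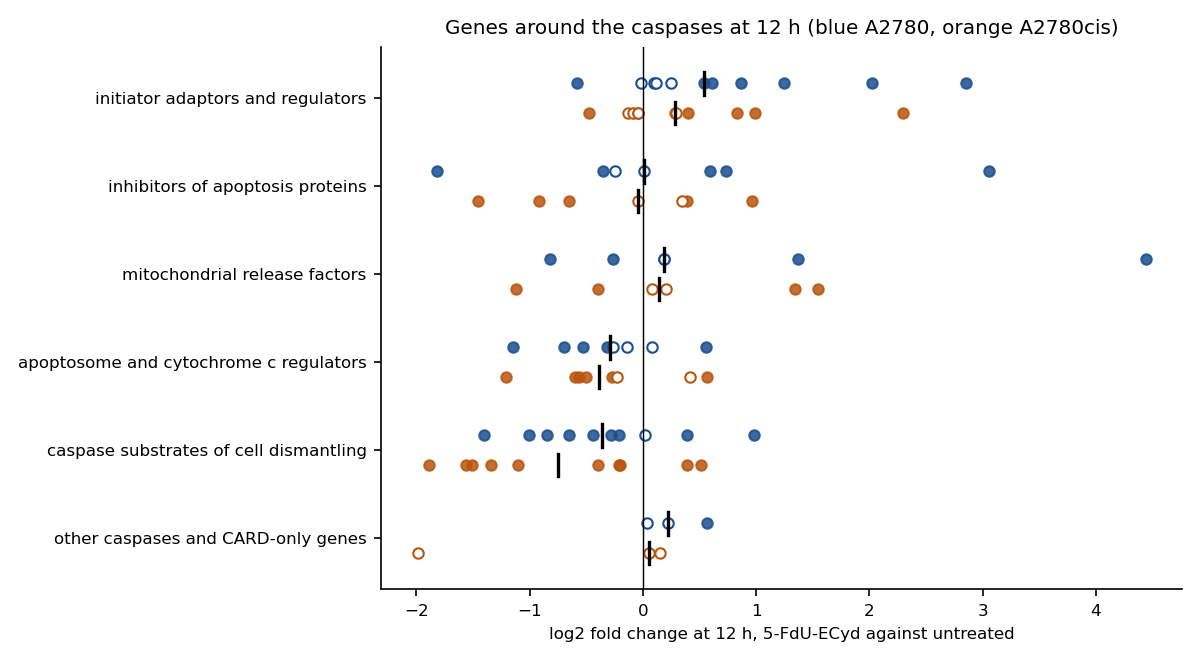
Log2 fold change of 5-FdU-ECyd against untreated at 12 h (horizontal axis) for each tested gene of the 6 lists, blue A2780 and orange A2780cis. Filled points passed an adjusted p of 0.05 and black bars are list medians. Genes of the caspase substrate list lie mostly to the left, with medians of -0.36 and -0.75.

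Across the 24 libraries, 11189 protein-coding genes were ranked by the Pearson correlation of their log2 CPM with each of the 8. These are descriptions over libraries that share treatment, line and time. The nearest genes were APOBEC3D (r = 0.983) and IGDCC4 (0.973) for CASP10, PDE4C (0.956) and TEAD3 (0.953) for APAF1, SEPTIN7 (0.942) and SNX6 (0.929) for CYCS, and ATG4A (0.936) and SLC35E3 (0.923) for CASP6. For CASP2 they were NBPF1 (0.926) and TRAM2 (0.879), for CASP9 SLC17A7 (0.883) and SLC39A1 (0.880), and for CASP8 PSMG2 (0.851) and SUV39H2 (0.849). DIABLO had the weakest neighbours, B3GNT4 (0.685), with which it shares exon bases, and MED11 (0.654). Among the 8 themselves the highest value was 0.715, between CASP10 and CASP6, and CASP10 and APAF1, whose rises at 12 h were the largest, reached 0.0974. This last value pools both lines, and untreated A2780cis held more CASP10 and less APAF1 than untreated A2780. It does not compare the treatment effects within a line.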

How the data were processed

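Total RNA was prepared with a stranded total RNA kit and sequenced as single reads of 75 bp per the labels; the study's methods describe paired ends. The authors trimmed with Trimmomatic, aligned with STAR 2.5.2b to GRCh38.p7 and counted with featureCounts. Their settings counted reads at several loci as fractions. They also allowed a read over exons of several genes to be assigned to each of them. The deposited values are therefore estimated counts per gene (expected counts), which were rounded here. The strand setting is not given in the sources used here.

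Gene names and positions are from GENCODE release 44. The 24 libraries were fitted in 1 model, a coefficient per group, with edgeR 4.0.16 (TMM, filterByExpr with a minimum count of 10, quasi-likelihood test, 16 residual degrees of freedom, Benjamini-Hochberg over 20240 genes). SE is |log2 fold change| divided by the square root of F, and n = 3 per group. The members and gene lists were chosen with earlier results of these data known. Of each list, up to 2 genes with the largest rise and 2 with the largest fall at 12 h were named among those called whose average log2 CPM was 2 or more; single values outside the treatment and line comparisons are given only for members with an unadjusted p below 0.1. In data simulated for A2780 at 12 h (20240 genes), 78 of 100 genes changed 2-fold and 90 of 100 changed 4-fold were called, with 8 of 19046 unchanged genes. Only 200 genes were changed there (193 of them tested), and the others had the same mean share in every group. In the real comparison 54.8% of genes were called, so these rates need not carry over. Alternatives were DESeq2 1.42.0 (size factors, Wald test), library size alone, no filter, counts not rounded, the compared groups alone, no lncRNA or rRNA genes, a replicate block, pseudogenes added to CYCS and each library left out. Counting error was not given separately; it is part of the fit's spread.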

Additional observations from a re-analysis of the deposited data

Results flagged for a closer look

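By a test of the difference itself, effects of 5-FdU-ECyd differed between the lines for 1 of the 8 genes at 6 h (3.07% of all genes). At 12 h they did so for 2 of the 8 (23.7% of all genes). Between the times they differed for 3 of the 8 in A2780 (23.7%) and for 4 in A2780cis (24%). Between the lines, A2780cis minus A2780, the APAF1 effect differed by -0.82 at 6 h and by -0.48 at 12 h, and the CASP2 effect by -0.69 at 12 h. Of 20 alternative fits, the APAF1 call was lost in 1 at 6 h and in 11 at 12 h. Between the times, 12 h minus 6 h, the effects in A2780 differed by 1.40 for CASP10, 0.90 for CASP6 and 0.37 for CASP8, the last lost without a filter and in 10 of the 12 fits that left out a library. In A2780cis they differed by 1.15 for CASP10, 0.72 for CASP6, 0.67 for APAF1 and -0.47 for CASP2, the last lost in 2 of 20 alternative fits. The causes of these differences were not tested.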

How the results depend on the processing

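Values of the 8 genes were recomputed 1132 times, and 1038 kept their direction and their side of the threshold, 59 kept the direction and lost the call, 13 gained it and 22 changed sign, 0 of the last being a value that had been called. With library size alone, where normalization factors (1.12 to 1.19 in treated A2780 at 12 h, 0.992 to 1.01 in its controls) no longer enter, the median of all genes moved from 0.02 to 0.24 in A2780 at 12 h, from 0 to 0.10 in A2780cis at 6 h and from 0.04 to 0.15 in A2780cis at 12 h. The share of calls that were rises moved from 52.3% to 70.7%, from 47% to 61.4% and from 51.7% to 58.8% there, from 41% to 27% for the difference between the lines at 12 h, from 45.1% to 69.7% for 12 h minus 6 h in A2780, and from 61.7% to 71.9% and 45.2% to 74.6% between the times in untreated A2780 and A2780cis. Signs then turned for DIABLO (0.012) in A2780 at 6 h, for CASP8 (0.203), CYCS (0.088) and DIABLO (0.143) in A2780 at 12 h, for CASP8 (0.016) and CASP6 (0.014) in A2780cis at 6 h, for CYCS (0.011) in A2780cis at 12 h, and for CYCS (-0.019) and DIABLO (-0.032) between the untreated lines at 6 h. Without lncRNA and rRNA genes CASP8 in A2780 at 12 h was 0.005. With the compared groups alone CYCS was -0.01 and DIABLO -0.022 between the untreated lines at 6 h, and with the DESeq2 Wald test DIABLO was 0.001 between the untreated lines at 12 h. The causes were not tested.

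The number of the 8 genes called between the times in untreated A2780cis went from 2 to 1 with DESeq2 size factors, without a filter, with the compared groups alone and with the DESeq2 Wald test. The number called as different between the lines at 12 h went from 2 to 1, and that between the untreated lines at 6 h from 5 to 3, without a filter and with the compared groups alone. With single libraries left out, these 3 counts ran from 0 to 3, from 1 to 3 and from 3 to 5, and the count between the lines at 6 h from 0 to 2. Values that changed sign in such fits ran from -0.011 to 0.128 (CYCS) between the untreated lines at 6 h, from -0.043 to 0.025 (DIABLO) between them at 12 h, from -0.174 to 0.001 (CASP6) in A2780cis at 6 h, from -0.053 to 0.008 (CASP8) in A2780 at 12 h and from -0.302 to 0.016 (CYCS) in A2780cis at 12 h. Whether the replicate numbers pair the libraries was not settled. Same-numbered deviations correlated between -0.61 (A2780 at 6 h) and 0.57 (A2780cis at 12 h), and libraries of different numbers were not compared. The replicate block changed 0 calls of 73 values, leaving 5 and 4 genes called in A2780 at 6 h and 12 h. This block was shared by both lines and times, so it cannot show pairing within a single comparison.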
